A study of Mus musculus with 2 samples.

Results

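Retinoic acid is made, destroyed, bound and read in embryonic tissue by a small set of genes, and 9 of them were followed here in the mouse limb bud: the synthesising enzymes Aldh1a1, Aldh1a2 and Aldh1a3, the degrading enzymes Cyp26a1 and Cyp26b1, the cytosolic binding proteins Crabp1 and Crabp2, and the receptors Rarb and Rarg. They were chosen by gene symbol, as every probe set annotated with that symbol alone, which gave 12 probe sets of 34945 that carry a single symbol and 9 genes of 18193. The study hybridised RNA from whole limb buds of C57BL/6 embryos at E10.5 to Affymetrix arrays, 1 array for wild-type and 1 for Bhlha9 knockout embryos. The product of Bhlha9 belongs to the basic helix-loop-helix family of transcription factors. The sources used here do not say how many embryos were pooled, whether buds of fore and hind limbs were both taken, or which part of the gene was deleted.

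Retinoic acid is a small diffusible derivative of vitamin A. Retinol is oxidised to retinal by dehydrogenases such as Rdh10, and retinal to retinoic acid by the Aldh1a enzymes, while Cyp26 enzymes oxidise retinoic acid further and clear it. Retinoic acid binds nuclear receptors of the RAR family, which act on DNA as partners of RXR receptors. In the early limb bud, Aldh1a2 is known as the synthesising enzyme of the flank, Cyp26b1 as the degrading enzyme of the distal mesenchyme, and Meis1 and Meis2 as retinoic acid responsive genes of the proximal part.

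With 1 array per genotype no test of the genotype was possible, and values are called higher or lower only as a description of 2 arrays without replicates. A signal was treated as detected above a floor of 41.2 (wild-type) or 41.75 (knockout), the 40th percentile of each array. Where a signal lay under the floor on 1 array, the fold is a bound, and where it did so on both, no ratio was formed. The only error that could be read was that between probe sets of one gene: over 5440 genes with 2 probe sets detected on both arrays, a single log2 ratio had an SD of 0.28 by their disagreement, in which embryos and RNA preparations have no part. Where the dimmer probe set had a mean signal under 200, this SD was 0.434 (1843 genes), and otherwise it was 0.22 (3597 genes). The probe set of Bhlha9 itself read 7.87 and 1.70, under the floor on both arrays, so it did not check the labels.

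The promoters of 4 of these genes are shown because they are the ones that the results below turn on. Rarb and Cyp26a1 are known to be induced by retinoic acid through a DR5 element, a pair of direct-repeat half-sites with 5 bases between them, to which RAR and RXR bind. Aldh1a2 and Cyp26b1 had the highest and the lowest ratio among the 7 probe sets detected on both arrays. The sequences are the 250 bases before the start of each gene in RefSeq (GRCm38.p6), written 5′ to 3′ on the gene's own strand. In Rarb, on the minus strand at chr14:16575477-16575726, and in Cyp26a1, on the plus strand at chr19:37697558-37697807, capitals mark the DR5 element. In Cyp26b1, on the minus strand at chr6:84593811-84594060, and in Aldh1a2, on the plus strand at chr9:71215539-71215788, capitals mark each E-box, CANNTG, the kind of site that basic helix-loop-helix proteins recognise.
Rarb: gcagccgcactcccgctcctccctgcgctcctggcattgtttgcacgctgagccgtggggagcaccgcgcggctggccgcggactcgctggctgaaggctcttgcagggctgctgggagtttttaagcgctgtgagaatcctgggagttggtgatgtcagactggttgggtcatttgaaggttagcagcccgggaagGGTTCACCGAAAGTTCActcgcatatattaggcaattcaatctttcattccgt
Cyp26a1: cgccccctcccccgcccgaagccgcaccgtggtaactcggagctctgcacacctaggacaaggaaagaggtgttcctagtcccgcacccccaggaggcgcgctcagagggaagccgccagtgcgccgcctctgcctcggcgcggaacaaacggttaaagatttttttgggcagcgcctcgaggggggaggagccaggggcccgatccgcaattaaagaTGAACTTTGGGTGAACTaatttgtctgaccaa
Cyp26b1: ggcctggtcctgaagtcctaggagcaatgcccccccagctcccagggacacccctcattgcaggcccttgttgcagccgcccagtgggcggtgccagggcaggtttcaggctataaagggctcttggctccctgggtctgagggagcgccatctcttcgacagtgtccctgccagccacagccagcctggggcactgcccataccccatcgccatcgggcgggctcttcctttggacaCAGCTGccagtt
Aldh1a2: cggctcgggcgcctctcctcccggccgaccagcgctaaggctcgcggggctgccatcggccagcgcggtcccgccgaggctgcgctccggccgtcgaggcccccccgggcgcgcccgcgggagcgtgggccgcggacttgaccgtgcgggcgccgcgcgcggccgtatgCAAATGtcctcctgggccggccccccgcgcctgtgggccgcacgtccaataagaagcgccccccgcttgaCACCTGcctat

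DR5 elements were searched on both strands as any pair of half-sites with 5 bases between them, where a half-site was AGGTCA in its plain form, or GGGTCA with the first base changed, or AGTTCA with the third base changed, or GGTTCA with both changed. Rarb held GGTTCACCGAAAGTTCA, from 53 to 37 bases before the start, and Cyp26a1 held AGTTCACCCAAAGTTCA on the opposite strand, from 32 to 16 bases before the start. Such an element was present in 29 of 32851 upstream windows in the RefSeq table, 0.0883%. Of the 9 genes, 7 had a window there, 9 windows in all, and no DR5 element was found in the other 7 windows, which belong to Aldh1a1, Aldh1a2, Cyp26b1, Crabp1 and Rarg. E-boxes, whose letters read the same on both strands, were found in 7 of the 9 windows and in 66.2% of all windows. No E-box overlapped a DR5 element. A match is a description of the letters and says nothing of binding in these embryos.

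Among the enzymes, the largest differences lay in opposite directions for synthesis and breakdown. Aldh1a2, the main embryonic enzyme of retinoic acid synthesis, read 404 in wild-type and 1121 in knockout tissue. It was 2.78-fold higher, a log2 ratio of 1.47, and this was 5.26 times the SD of the probe set error. Of the 20895 probe sets detected on both arrays, 142 had a ratio as high, that of Aldh1a2 included. Among the 3548 with a similar mean signal, within 0.5 on the log2 scale, 9 had one as high.

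Cyp26b1, which removes retinoic acid from the distal limb bud, read 2048 in wild-type and 377 in knockout tissue. It was 5.44-fold lower, a log2 ratio of -2.44, 8.73 times the SD of the probe set error. Only 7 of the 20895 probe sets had a ratio as low, that of Cyp26b1 included, and among the 3353 of similar signal 2 did. The ratios of Aldh1a2 and Cyp26b1 differed by 3.92 on the log2 scale, or 15.1-fold. This pair is the highest and the lowest among the 7 probe sets of these genes detected on both arrays, so it is the widest apart. A scaling of the whole array cancels in that difference.

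The other enzymes were read near or under the floor. Cyp26a1, the degrading enzyme known from the tail bud, read 59.45 and 60.99, less than 1.5 times the floor, with a log2 ratio of 0.04. Its ratio and that of Cyp26b1 differed by 2.48. Aldh1a1, known from the dorsal retina, read 1.26 in the wild type and 87.3 in the knockout, at least 2.12-fold higher. Of the 3 probe sets of Aldh1a3, known from the ventral retina and nasal region, the first read 31.9 and 17.8, the next 10.1 and 4.29, and the last 1.10 and 84.2. By the last one Aldh1a3 was at least 2.04-fold higher, while the others were under both floors, so its probe sets did not give 1 reading of the gene. These bounds stand just past 2-fold, and neither gene was detected on either array with the floor at the 60th percentile.

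**Figure D1:**
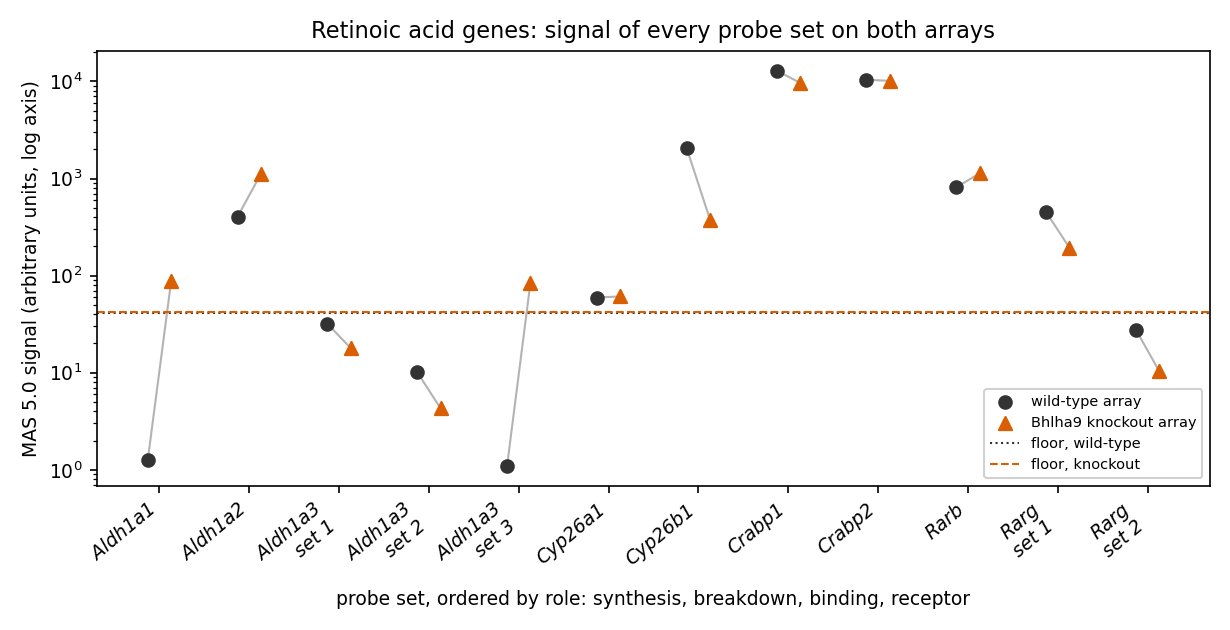
MAS 5.0 signal (log axis) of each of the 12 probe sets of the 9 genes on the wild-type array (circles) and the Bhlha9 knockout array (triangles), with the floors as horizontal lines; probe sets of one gene are numbered by falling wild-type signal. Aldh1a2 went from 404 to 1121 and Cyp26b1 from 2048 to 377, while Crabp1 and Crabp2 lay near or above 9692 on both arrays.

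The binding proteins were among the brightest probe sets of the arrays and differed little. Crabp2, which hands retinoic acid to its receptors in the nucleus, read 10420 and 10149, a log2 ratio of -0.04 and 0.136 times the SD of the probe set error. Crabp1, a binding protein known from neural crest and limb mesenchyme, read 12957 and 9692, 1.34-fold lower, with a log2 ratio of -0.42. Crabp1 differed by 1.5 times the SD, but bright probe sets varied less: of 469 with a similar signal, 22 had a ratio as low, and 80% of them lay between -0.27 and 0.41. The ratios of Crabp2 and Crabp1 differed by 0.38. That is 0.961 times the SD expected for a difference of 2 ratios from the error over all genes, 0.28. The error was smaller, 0.22, where both probe sets of a gene had a mean signal of at least 200.

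The receptors split. Rarg, the RAR of undifferentiated mesenchyme and cartilage, read 453 in wild-type and 194 in knockout tissue by its brighter probe set, 2.33-fold lower, with a log2 ratio of -1.22. Among 3597 probe sets of similar signal, 64 had a ratio as low. Its other probe set was under both floors, at 27.8 and 10.4, and gave no ratio.

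Rarb, the RAR whose own promoter holds the DR5 element printed above, read 811 and 1128, 1.39-fold higher, a log2 ratio of 0.48. That is 1.70 times the SD of the probe set error, and 348 of 3267 probe sets of similar signal had a ratio as high. Cyp26a1, the other gene with the element, differed by less than the error. The ratios of Rarb and Rarg differed by 1.70, or 3.25-fold.

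In all, 9 of the 12 probe sets were detected on at least 1 array, 7 on both and 2 on the knockout array alone. At 2-fold, 3 were higher and 2 lower. The same directions held 3.38% and 3.89%, respectively, of all single-symbol probe sets detected on at least 1 array. Among those detected on both arrays the shares were 2.43% and 3.58%, and of the 7 probe sets of the retinoic acid genes 1 was higher (Aldh1a2) and 2 were lower (Cyp26b1 and Rarg). Of the 7 ratios 3 were positive and 4 negative, and the median was -0.04, against -0.04 over all 20895 probe sets. No gene of the 9 had more than 1 probe set above the floor, so none of the ratios has a second reading within the arrays.

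**Figure D2:**
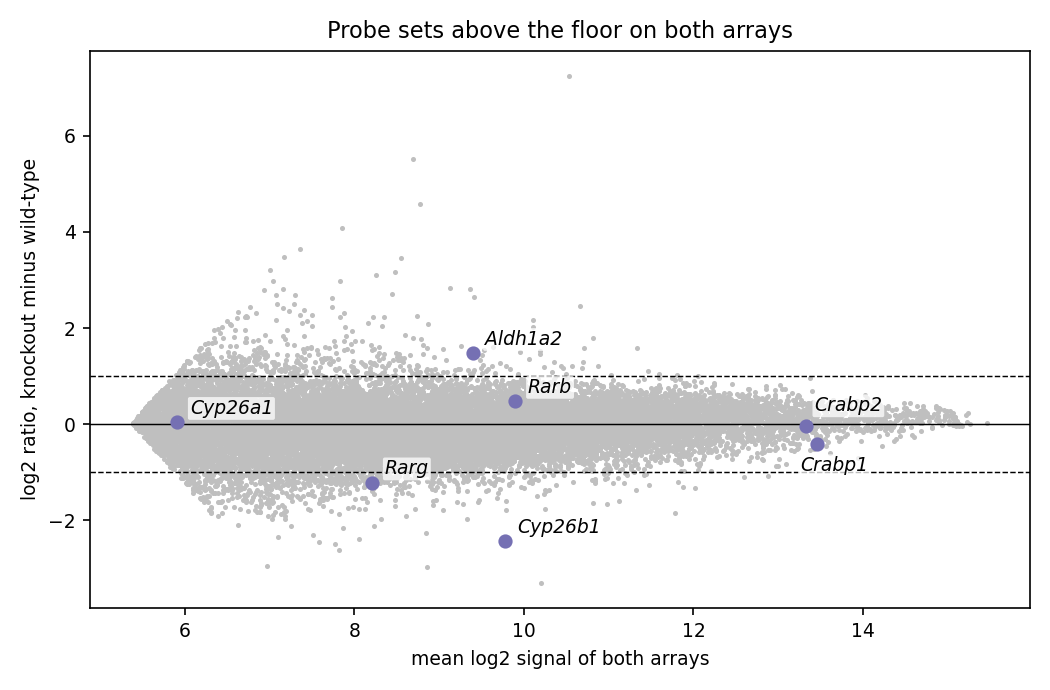
Log2 ratio, knockout minus wild-type, against the mean log2 signal for 20895 single-symbol probe sets detected on both arrays (grey) and the 7 of the retinoic acid genes (purple, named); dashed lines mark 2-fold. Cyp26b1 at -2.44 lies at the lower edge and Aldh1a2 at 1.47 near the upper edge for their signal, and the other 5 lie within the cloud.

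The genes whose pattern was most like that of Aldh1a2, by the nearest log2 ratio among 2076 genes of similar signal, were Ckb at 1.41, Tgm2 at 1.40, Elavl2 at 1.54 and Fap at 1.56. For Cyp26b1 the nearest among 2078 genes were Lmo1 at -1.99, Gadd45gip1 at -1.79, Smoc1 at -1.53 and Tbx15 at -1.504. By brightest probe set, none of the 2078 came closer to Cyp26b1 than 0.46 on the log2 scale. The second detected probe set of Tbx15, however, gave -2.54, close to Cyp26b1. With 1 array per genotype this likeness rests on 1 ratio per gene.

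Other enzymes that act on retinol, retinal or retinoic acid were read next. The list of dehydrogenases, reductases and other oxidases had 20 genes with a probe set, 12 of them detected on both arrays, with 9 positive and 3 negative ratios and a median of 0.44, against -0.01 over all 11491 genes detected on both arrays. The median was 0.27 when the floor was set at the 60th percentile, and 0.10 over all 20 genes when a pseudocount of 32 took the place of the floor. At 2-fold 2 were higher and 0 lower, where 2.87% and 2.51% of all genes detected on both arrays were. Rdh10, the main embryonic retinol dehydrogenase, read 726 and 1300, a log2 ratio of 0.84, and 1.09 by its other detected probe set. Adh1, an alcohol dehydrogenase, read 130.5 and 279, a ratio of 1.10. Aldh1a7, a close relative of Aldh1a1, read 54.15 and 109, a ratio of 1.01 near the floor.

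Cyp1b1, a cytochrome that can make retinoic acid outside the Aldh1a route, was at 0.68 and 0.73 by its 2 detected probe sets. Rdh14 was at 0.54, with 0.38 and 0.74 as the lowest and highest of its other probe sets, and Dhrs4 was the lowest of the list at -0.49. The other 8 genes of the list were under both floors.

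Genes of retinol transport and storage were read in few cases, with 5 of 11 under both floors. Rbp4, the plasma carrier of retinol, went from 211 to 1496, 7.10-fold higher, and its partner Ttr was at least 101-fold higher. Both are also on the list of liver and gut genes given below. Bco1, which cleaves carotenoids, was at least 2.05-fold higher, from 4.50 to 84.2, a bound close to the threshold. Stra6, the receptor for Rbp4, was at -0.31, its relative Stra6l at 0.40 and Scarb1 at -0.27.

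In the list of receptor partners and alternative retinoid binding 1 of 5 detected genes, Ppard, was at least 2-fold lower and 0 higher. Of all genes detected on both arrays 2.51% and 2.87% were. Of the 5 ratios 3 were negative and 2 positive, with a median of -0.73, the value of Rxra. The median was -0.475 when the median of the detected probe sets of each gene was used. Rxrb read 1046 and 573, which is -0.87. Rxra read 376 and 228, which is -0.73, and its second detected probe set gave -0.22. Ppard, a receptor that retinoic acid can also reach, was 2.56-fold lower, from 122 to 47.67, and so near the floor on the knockout array. Rara, the widely expressed RAR, was at 0.28, and Fabp5, which carries retinoic acid to Ppard, at 0.33. Of the 3 RAR genes, Rarg was the one past 2-fold.

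The coregulators that RAR and RXR recruit had 0 of 10 genes past 2-fold in either direction by their brightest probe sets, against 2.87% higher and 2.51% lower over all genes detected on both arrays, and a median of -0.03. Other probe sets of Tbl1xr1, Med1 and Crebbp reached -1.39, -1.24 and -1.06. By brightest probe set Nrip1 was farthest from 0, at 0.47, but its 5 others ran from -0.39 to 1.11 and 1 of them had the same sign. Ncoa1 was at 0.38, with -0.11 by its other probe set, and Tbl1x and Ep300 were both at -0.22.

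Genes that respond to retinoic acid had more positive than negative ratios, and most stayed short of 2-fold. Of 15 with a probe set, 13 were detected on both arrays, 11 with positive and 2 with negative ratios by brightest probe set, and the median was 0.65. The negative ones were Stra6 at -0.31 and Hoxa3 at -0.04, the latter with 0.02 and 0.24 by its other probe sets. Hoxb5 at 0.10 and Dhrs3 at 0.14 were the lowest of the positive ones. At 2-fold 4 genes of the list were higher and 0 lower, against 2.87% and 2.51% of all genes detected on both arrays. Hoxa4 went from 43.7 to 151, Hoxb1 from 78.6 to 182, Hoxb4 from 124 to 321 and Tgm2, a transglutaminase induced by retinoic acid in many cells, from 301 to 796. Their log2 ratios were 1.79, 1.21, 1.37 and 1.40.

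These 4 readings were uneven. The second detected probe set of Hoxb4 gave -0.41, and those of Tgm2 ran from 0.01 to 1.39. Hoxa4 stood just above the floor in wild-type tissue, and a pseudocount of 32 in place of the floor put it at 1.28. With the floor at the 60th percentile, 1 gene of the list was past 2-fold upward instead of 4. The share of all single-symbol probe sets fell from 3.38% to 1.37% in the same step. Hoxb1 was then at 0.11 and Hoxb4 at 0.93. The bright members Nr2f1 and Nr2f2, orphan nuclear receptors, were at 0.93 and 0.66. The 5 other detected probe sets of Nr2f2 ran from -0.08 to 1.115, and 4 of them had the same sign. Meis2, a homeobox gene of the proximal limb, was at 0.65, with its 3 other detected probe sets between 0.49 and 0.62. Meis1 had a ratio of 0.48, taken from its brightest probe set, and the others lay between -0.58 and 0.24.

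**Figure D3:**
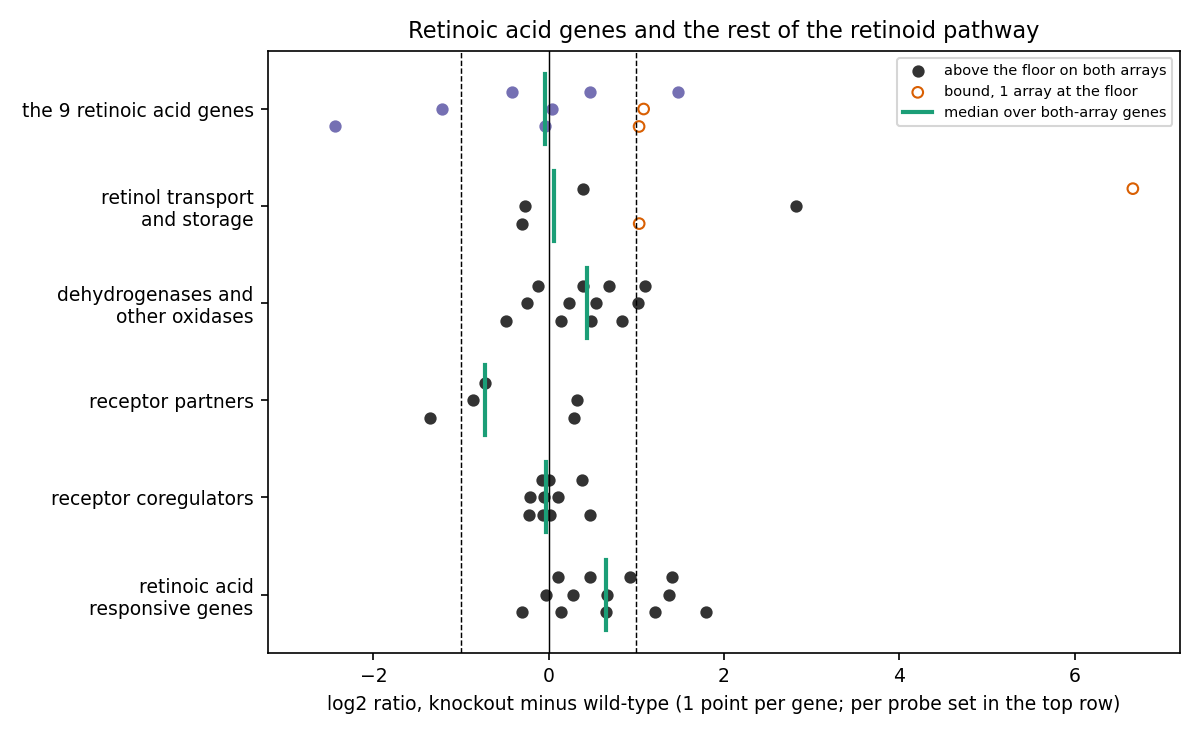
Log2 ratio, knockout minus wild-type, of the 9 retinoic acid genes (top, purple, 1 point per probe set) and of 5 lists of other retinoid pathway genes (black, brightest probe set per gene); open orange circles are bounds where 1 array was at the floor, green bars are medians over genes detected on both arrays, and dashed lines mark 2-fold. The median was 0.65 for the responsive genes, 0.44 for the dehydrogenases, -0.73 for receptor partners with alternative retinoid binding genes, and -0.03 for the coregulators.

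Across the 5 pathway lists, each gene counted once, 60 of 68 genes had a single-symbol probe set and 44 were detected on at least 1 array. Of these 9 were at least 2-fold higher and 1 at least 2-fold lower, where 4.15% and 2.65% of all genes detected on at least 1 array were. Among the 42 detected on both arrays 28 ratios were positive and 14 negative, with a median of 0.28. The other 8 genes were not analysed here.

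A further group was taken from sequence, after its values could be seen: the genes with a DR5 element in the upstream window. Of 28 such genes 11 had a single-symbol probe set and 6 were detected on both arrays, Rarb and Cyp26a1 among them, with log2 ratios from -0.11 to 1.20 and a median of 0.03. The highest was Blvrb, a biliverdin reductase, from 285 to 655. It was the 1 gene at least 2-fold higher, and 0 were lower, where 2.87% and 2.51% of all genes detected on both arrays were.

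Several of the 9 genes are known from tissues that lie next to the limb bud, and markers of those tissues also differed between the arrays. Counts past 2-fold in these lists stand beside 4.15% higher and 2.65% lower over all genes detected on at least 1 array. In whole tissue, fewer cells of a type and less RNA per cell cannot be told apart. Of 15 distal limb bud genes, where Cyp26b1 is known to be expressed, 7 were at least 2-fold lower and 0 higher. By their brightest probe sets all 13 detected on both arrays had negative ratios, with a median of -1.08. The ratios closest to 0 were those of Hoxd13 at -0.03 and Msx2 at -0.24, and their second detected probe sets gave 0.10 and 0.95. The summed signal of the 15 was 31173 in wild-type and 16053 in knockout tissue, and Etv4, Spry2 and Etv5 had the lowest ratios, at -1.78, -1.63 and -1.37. Their other detected probe sets gave -1.73 for Etv4, -0.69 for Spry2, and -1.21 and -0.44 for Etv5. The ratio of Cyp26b1, -2.44, was lower than each of these.

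Of 11 limb mesenchyme genes detected on both arrays, 10 had negative ratios by brightest probe set and 5 were at least 2-fold lower, with a median of -0.71. The median was -1.12 when the median of the detected probe sets of each gene was used. The positive one was Tbx3 at 0.59, with -0.35 and 0.65 by its other detected probe sets. Hand2, at -0.37, had 0.60 by its second detected probe set. The summed signal of the whole list, 12 genes, was 29592 in wild-type and 18679 in knockout tissue. Lmx1b, Tbx15 and Shox2 were the lowest by brightest probe set, at -1.92, -1.504 and -1.31. The second detected probe sets of Tbx15 and Shox2 gave -2.54 and -1.59. Rarg, at -1.22, lay within the range of this list. The part of these markers in the readings of Cyp26b1 and Rarg was not tested.

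In the list of flank, somite and mesothelium, the tissues from which Aldh1a2 is known, 4 of 14 genes passed 2-fold upward and 0 downward. The median was 0.62 over 12 detected on both arrays. Summed signals were 5331 and 6592. The mesothelial gene Wt1 was at 2.01, Foxc2 at 1.44 and Upk3b at 1.23, so the ratio of Aldh1a2, 1.47, fell between those of Wt1 and Foxc2. Positive ratios numbered 9 and negative ones 3, the latter those of Tbx18 at -0.53, with -0.71 by its second probe set, Osr1 at -0.42 and Tcf15, a somite gene, at -0.02. The part of these tissues in the reading of Aldh1a2 was not tested.

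Neural and liver genes differed most. Of 15 genes of neural tube and neurons 11 were at least 2-fold higher and 0 lower, from a summed signal of 2172 to 8296, with Nefl, Sox2 and Nefm highest at 2.98, 2.71 and 2.70. Of 13 genes of liver and gut 12 were at least 2-fold higher, from a sum of 424 to 33927, and the brightest probe sets of 11 of the 13 were detected in knockout tissue alone. By these, Afp, Ttr and Alb had the largest bounds, 8.86, 6.67 and 5.65 on the log2 scale. Other probe sets of Afp gave smaller values, from 1.22 to 8.42, among them 1 that was detected in both tissues and gave a measured ratio of 7.25. Rbp4 and Ttr are themselves on this liver and gut list. They were past 2-fold upward, as were Bco1, Adh1, Aldh1a7, Hoxa4, Hoxb1, Hoxb4, Tgm2, Aldh1a1, Aldh1a2 and Aldh1a3. The part of neural, liver and gut tissue in these readings was not tested.

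Counts in the other lists were as follows. In apical ridge and ectoderm, 6 of 13 genes passed 2-fold upward and 0 downward, led by Cdh1 (1.72), Sp8 (1.54) and Trp63 (1.46). The other detected probe sets of Trp63 gave -0.20 and 0.01, and the ridge signals Fgf8 and Fgf4 were at 0.15 and -0.56. Muscle precursors had 5 of 8 higher, led by Mylpf (3.17), Tnnt2 (2.23) and Myog (2.05), while Actc1 was at -0.47 and Lbx1, of migrating limb muscle precursors, at -0.80. Neural crest and glia, from which Crabp1 is known, had 3 of 7 higher, with Fabp7, Tfap2b and Erbb3 at 4.08, 1.73 and 1.24, while Sox10 and Ngfr were at -0.72 and -0.57. Endothelial genes had 2 of 7 lower, with Tie1 at a bound of -1.43, Kdr at -1.08 and Pecam1 at -0.71. Tek was at -0.10, and Emcn had the 1 positive ratio by brightest probe set, 0.44. Red cell genes had 0 of 5 past 2-fold, with Slc4a1 farthest from 0 at 0.55, followed by Alas2 at 0.34 and Hbb-bh1 at 0.26.

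**Figure D4:**
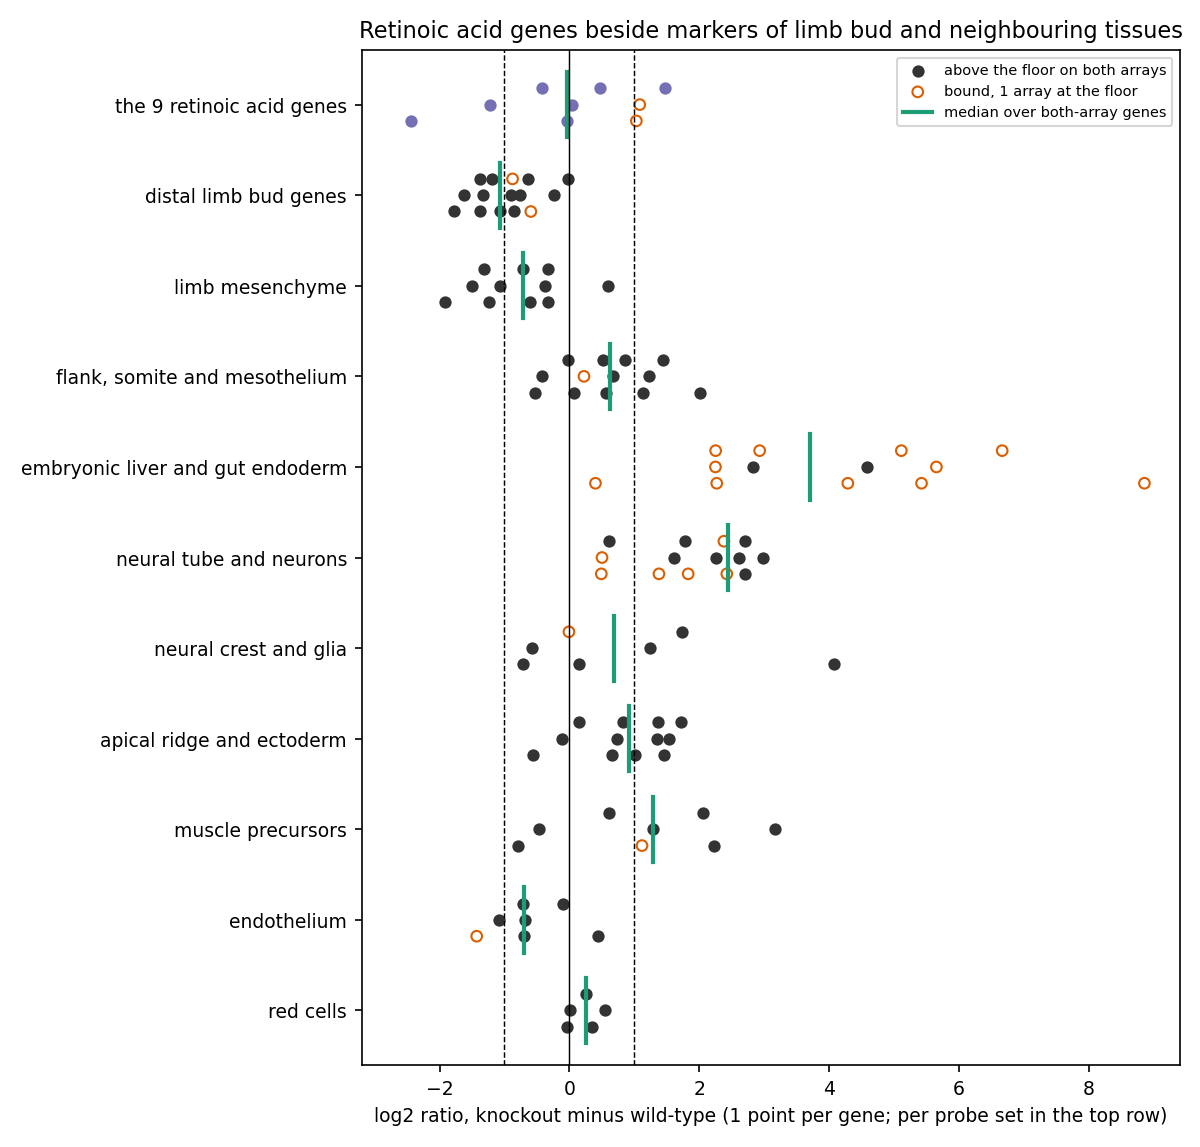
Log2 ratio, knockout minus wild-type, of the 9 retinoic acid genes (top, purple, 1 point per probe set) beside marker lists of the limb bud and neighbouring tissues (black, brightest probe set per gene); open orange circles are bounds where 1 array was at the floor, and green bars are medians over genes detected on both arrays. Distal limb bud genes had a median of -1.08 and the flank, somite and mesothelium list one of 0.62, the same sides of 0 as Cyp26b1 and Aldh1a2.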

How the data were processed

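Per the labels, total RNA of whole limb buds was hybridised to Affymetrix Mouse Genome 430 2.0 arrays. The deposited values are intensity per probe set on a linear scale, summarised with MAS 5.0 per the series' design text, and the scaling target is not stated. Their 2% trimmed mean was 500.0 on both arrays. Of 45101 probe sets 64 controls were left out. Gene symbols came from the platform annotation: 34945 probe sets had a single symbol, of which 34741 matched RefSeq (GRCm38.p6), 932 had several and 9160 were unnamed here. Those without a single symbol were used only to set the floor and to rescale the arrays in the alternatives (median centring, quantile normalization and loess).

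Signals under the floor, the 40th percentile of each array, were raised to it before the log2 ratio was taken. With 1 array a group, no p-value could be given. The 9 genes were read by every probe set, and other genes by the probe set of highest mean signal. For other pathway genes, those past 2-fold and up to 4 more per list with the largest ratios were named, and up to 3 per marker list. Tbx18, Osr1, Tcf15, Sox10, Ngfr, Lbx1, Actc1, Fgf8, Fgf4, Tbl1xr1, Med1, Crebbp and Blvrb were named after their values were seen. The same holds for Hoxa3, Hoxb5, Dhrs3, Hoxd13, Msx2, Tbx3, Hand2, Tek and Emcn. The 9 genes, the lists and the rules were chosen with earlier results of these data known. Probe set error is a scaled median absolute deviation. Alternatives covered scaling, floor, fold threshold and choice of probe set. Python 3.11.15 with numpy 2.4.6, pandas 2.3.3, statsmodels 0.14.6 and matplotlib 3.10.9 was used.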

Additional observations from a re-analysis of the deposited data

How the results depend on the processing

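Of 58 recalculated ratios of the retinoic acid genes, under median centring, quantile normalization, loess, floors at the 20th and 60th percentile, a pseudocount of 32 and unique probe sets alone, 54 moved by less than the probe set error of 0.28 and 0 of those past 2-fold changed sign. Cyp26b1 ranged from -2.44 to -2.35, Aldh1a2 from 1.40 to 1.57 and Rarg from -1.22 to -1.07. The exceptions were the bounds, which the floor sets by construction: a floor at the 20th percentile put Aldh1a1 at 3.48 and Aldh1a3 at 3.43, and the pseudocount put them at 1.84 and 1.81. A floor at the 60th percentile left no ratio for Aldh1a1, Aldh1a3 and Cyp26a1, and unique probe sets left none for Crabp1 and Rarg. Where both signals stayed above the floor, moving the floor could not change a ratio. Keeping unique probe sets alone could not change one either, since a kept probe set has the same reading. Such rows are among the 54 and say nothing of stability.

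Of the probe sets of the 9 genes, 3 higher became 1 with the higher floor, at the 60th percentile, and 0 at 3-fold. The 2 lower became 3 with the floor at the 20th percentile, 1 at 3-fold and 1 with unique probe sets. The shares of all single-symbol probe sets moved with the floor too. With the floor at the 60th percentile 3.38% higher became 1.37%, and 3.89% lower became 2.08%. With the floor at the 20th percentile they became 11.1% and 9.94%. No such share was taken at 1.5-fold and 3-fold, or over genes. The 9 higher pathway genes became 3 with the higher floor, 14 at 1.5-fold and 3 at 3-fold. The 1 lower pathway gene became 6 with the floor at the 20th percentile, 3 at 1.5-fold, 3 with the median of the detected probe sets, and 0 with the higher floor, the pseudocount and 3-fold. The 4 higher responsive genes became 1 with the higher floor, 7 at 1.5-fold and 1 at 3-fold, and the 0 lower became 1 with the lower floor. The number of arrays limits the precision. No paired analysis was possible because each group has 1 array.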
